A study of Mus musculus with 12 samples.

Results

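The DOCK and ELMO migration regulators examined here are 8 genes of 41128 in the table: Dock2, Dock5, Dock8, Dock9, Dock10, Dock11, Elmo1 and Elmo2. They were taken by gene symbol from a list made with earlier results of these data known, and 7 of the 8 passed the filter on low values that left 12520 genes to test. RNA was sequenced from spleen cells of the strain C57BL/6J at an age of 6 to 8 weeks, in 12 libraries that form 4 groups of 3. These were resting CD43- B cells of females, numbered 1 to 3, the same cells of males, also numbered 1 to 3, naive CD4+ T cells of females, numbered 4 to 6, and the same of males, also numbered 4 to 6. The naive T cells were pre-enriched on magnetic columns and then sorted as CD4+, CD62Lhi, CD44lo and CD25-, whereas the labels give no purification of the B cells beyond CD43-, so cell type and purification cannot be told apart. The replicates came from pooled mice. The labels name no treatment and no genetic change for any group.

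DOCK proteins are guanine nucleotide exchange factors: they load GTP onto the small GTPases Rac or Cdc42, which then drive the actin polymerisation that pushes a migrating lymphocyte forward. Dock2 and Dock5 belong to the DOCK-A subfamily, act on Rac and work together with an ELMO scaffold, which relieves the autoinhibition of the DOCK protein and is itself recruited to the membrane by the GTPase RhoG. Dock8 is a DOCK-C protein that acts on Cdc42, and Dock9, Dock10 and Dock11 form the DOCK-D (zizimin) subfamily, which acts on Cdc42 and, for Dock10, also on Rac. In lymphocytes Dock2 is known as the exchange factor needed for chemotaxis towards chemokines, and loss of Dock8 in humans causes a combined immunodeficiency.

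All 8 members are protein-coding and lie on 7 chromosomes of GRCm38. Dock2 occupies chromosome 11 from 34226815 to 34783892 on the minus strand, Dock5 chromosome 14 from 67752135 to 67933442 on the minus strand, and Dock9 the same chromosome from 121542046 to 121797837 on the minus strand. Dock8 lies on chromosome 19 from 24999534 to 25202432 on the plus strand, Dock10 on chromosome 1 from 80501073 to 80758527 on the minus strand, and Dock11 on chromosome X from 35888832 to 36076562 on the plus strand. Elmo1 lies on chromosome 13 from 20090596 to 20608353 on the plus strand and Elmo2 on chromosome 2 from 165288031 to 165326479 on the minus strand. No stretch of 50 bases in an annotated transcript of a member occurred in a transcript of another member, and at most 0.278% of such stretches (Elmo2) occurred in a transcript of any other gene. The annotation places 2 genes on the strand opposite Dock2, 1 opposite Dock8 and 1 opposite Elmo1, and on the same strand 3 within the span of Dock10, 3 within that of Elmo1 and 1 within that of Dock5. The libraries were stranded, but whether the counting used the strand is not given in the sources used here.

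The bases around the annotated starts of Dock2, Dock8, Dock10 and Dock11 are shown because these are the DOCK members at 48.9 or more in B cells and only Dock10 among them passed the test between the cell types. Each stretch runs from 250 bases before the start to 10 bases after it and is taken from the RefSeq promoter windows of GRCm38.p6. Capitals mark every match to GGAAGT, which extends the GGAA core bound by many ETS family factors, or to ACTTCC, the reverse complement of GGAAGT.
Dock2, chr11:34783896-34784155, minus strand: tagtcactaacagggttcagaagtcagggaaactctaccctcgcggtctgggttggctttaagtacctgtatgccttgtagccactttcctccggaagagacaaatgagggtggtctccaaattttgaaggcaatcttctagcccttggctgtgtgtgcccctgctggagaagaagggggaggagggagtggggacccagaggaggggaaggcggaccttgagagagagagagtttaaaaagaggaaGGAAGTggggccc
Dock8, chr19:24999279-24999538, plus strand: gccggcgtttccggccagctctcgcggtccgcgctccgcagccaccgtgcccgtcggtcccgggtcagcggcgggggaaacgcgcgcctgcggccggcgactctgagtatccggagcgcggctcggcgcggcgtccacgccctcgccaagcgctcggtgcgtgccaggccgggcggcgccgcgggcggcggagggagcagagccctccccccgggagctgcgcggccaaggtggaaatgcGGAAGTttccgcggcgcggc
Dock10, chr1:80758544-80758803, minus strand: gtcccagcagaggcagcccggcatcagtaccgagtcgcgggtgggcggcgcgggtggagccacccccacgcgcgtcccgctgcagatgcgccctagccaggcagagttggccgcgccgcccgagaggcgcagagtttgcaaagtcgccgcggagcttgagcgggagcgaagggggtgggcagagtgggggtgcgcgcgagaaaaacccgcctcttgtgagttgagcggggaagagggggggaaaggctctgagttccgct
Dock11, chrX:35888582-35888841, plus strand: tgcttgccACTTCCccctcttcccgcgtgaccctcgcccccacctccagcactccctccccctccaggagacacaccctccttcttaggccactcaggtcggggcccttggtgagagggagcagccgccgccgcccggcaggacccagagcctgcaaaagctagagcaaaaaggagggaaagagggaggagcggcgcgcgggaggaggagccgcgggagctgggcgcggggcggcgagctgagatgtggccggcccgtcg
The match of Dock2 began 3 bases before the start and that of Dock8 began 10 bases before it, whereas the single match of Dock11 began 242 bases before the start. The Dock10 stretch printed here, at the outer start of the gene, held no match to GGAAGT or ACTTCC. The shorter GGAA, which was not marked, does occur in that stretch. A second Dock10 window inside the gene held 2 matches. RefSeq windows of 300 bases were available for 7 of the 8 members (13 windows in all), and 7 of these windows held the motif. Of all 32851 windows of the same length, 23.8% held it. The motif was chosen after the sequences had been read, and a match is a string of letters, not a measured binding site.

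Values were given as adjusted TPM, a length-corrected share of all transcripts (TPM) that the authors had adjusted by a step not given in the sources used here. Levels are compared between genes on this scale, on the footing that the adjustment kept the length correction. The adjusted TPM of a library added up to between 561020 and 1453940, and a single gene, Yam1, took 32.2% of the total of female B cell 1 and 37.4% of that of male T cell 6. Between 11122 and 11543 genes reached an adjusted TPM of 1 in each library. The summed level of 5 B cell markers was 2610 to 2972 in B cells but 0.900 to 5.34 in T cells, and that of 5 T cell markers was 1044 to 1328 in T cells and 9.25 to 13.8 in B cells. The summed level of 3 regulatory and activated T cell markers (Foxp3, Il2ra, Ikzf2) was 21.0 in female T cell 6 and 17.2 in male T cell 6, against 1.75 to 3.14 in the other 4 T cell libraries, although the sort excluded CD25+ cells. The summed level of 5 monocyte and macrophage markers was 13.2 to 17.2 in B cells against 2.64 to 6.55 in T cells. In bulk RNA, fewer cells of a type and less RNA per cell cannot be told apart.

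The members spanned more than 2 orders of magnitude, and their order was the same in both cell types: Dock2, Dock10, Dock11, Elmo1, Dock8, Elmo2, Dock9 and Dock5. Dock2, the main Rac exchange factor of lymphocytes, stood at 200.1 ± 14.0 adjusted TPM (SD, n = 6) in B cells against 213 ± 7.72 (SD, n = 6) in T cells, which is above 97.7% of the tested genes in each. Dock5, its close relative in osteoclasts and neutrophils, stood at 0.630 ± 0.0606 (SD, n = 6) in B cells against 0.950 ± 0.177 (SD, n = 6) in T cells. Elmo1 and Dock8 overlapped in both cell types and so were not separated in the order. Dock10 and Dock11 overlapped in T cells, where their mean levels differed by a ratio of 1.05, but not in B cells, where the ratio was 1.55. Every other pair of neighbours was separated in both.

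**Figure D1:**
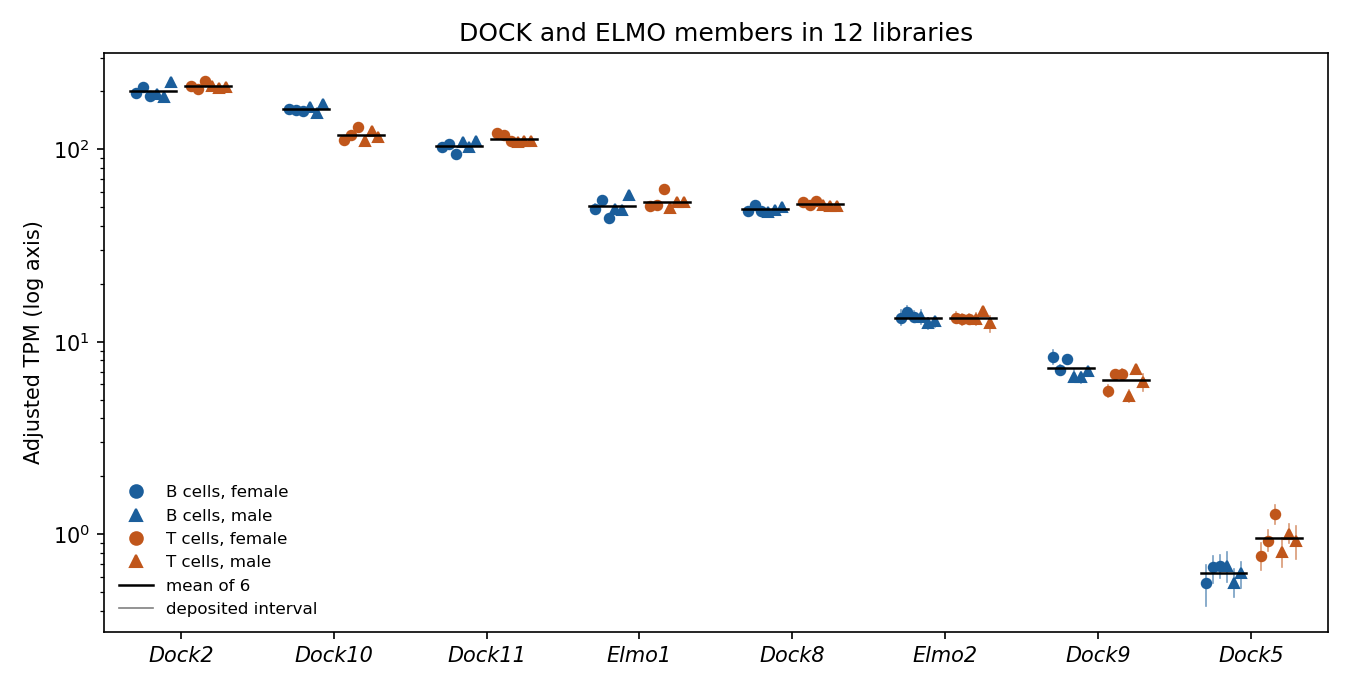
Adjusted TPM (log axis) of the 8 members in each of the 12 libraries, with circles for females, triangles for males, blue for B cells and orange for T cells; vertical lines are the intervals deposited with each value and black bars the means of 6 libraries. The members run from about 200 (Dock2) to below 1.27 (Dock5), and among those above 1 only Dock10 has no overlap between the cell types, at 155 to 172 in B cells against 110 to 130 in T cells.

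The first comparison asks which members differ between the resting B and the naive CD4+ T cell libraries. Of the 7 members tested, 2 (28.6%) differed, Dock10 and Dock9, both higher in B cells, against 73.0% of all 12520 genes tested (limma with Benjamini-Hochberg adjustment over all genes tested, adjusted p under 0.05). Of all genes tested, 31.4% were higher in B cells and 41.6% in T cells. This balance depended on the scaling: 43.0% of the calls were higher in B cells on the deposited scale, 50.1% of 9050 with median-ratio factors, 66.4% of 8122 with totals made equal after removal of the top gene and 70.8% of 6797 with totals made equal. The 6 B cell and 6 T cell libraries of a gene did not overlap for 1 of the 7 (Dock10), against 53.9% of all genes tested. Differences were computed on log2(adjusted TPM + 1) as B minus T cells. The median absolute difference was 0.09 over the members and 0.40 over all genes tested, and the median signed difference was -0.08 over the members and -0.09 over all genes tested. These levels and calls describe genes that were chosen with results of the same data known.

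Dock10, an exchange factor for Cdc42 and Rac, was higher in B cells and was the tested member whose groups did not overlap. Its adjusted TPM was 163, 161 and 157 in the female B cell libraries and 165, 155 and 172 in the male B cell libraries. In T cells it was 111.5, 119 and 130.4 in females and 110.1, 124 and 116 in males. Every B cell library was thus above every T cell library. The mean was 162 ± 5.90 (SD, n = 6) in B cells against 119 ± 7.70 (SD, n = 6) in T cells, a log2 difference of 0.45 (SE 0.06, 95% interval 0.33 to 0.57, limma adjusted p = 1.21e-05). The exact two-sided permutation test of 6 against 6 libraries gave p = 0.00216, the smallest it can give over 924 regroupings. Even so, 46% of the genes tested had a larger absolute difference. The difference stayed at 0.48 (limma adjusted p = 3.39e-05) without the T cell libraries numbered 6, in which regulatory T cell markers were high. It was 0.83 (limma adjusted p = 0.000206) with every library rescaled to an equal total.

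Dock9, a Cdc42 exchange factor of the same subfamily, was far lower. Its adjusted TPM was 8.38, 7.17 and 8.18 in female B cells, 6.59, 6.58 and 7.03 in male B cells, 5.58, 6.78 and 6.80 in female T cells and 5.26, 7.20 and 6.15 in male T cells. The ranges of the cell types overlapped. The log2 difference was 0.19 (SE 0.08, 95% interval 0.02 to 0.36, limma adjusted p = 0.0398), and the exact permutation test gave p = 0.0519. The call was lost when any of 8 libraries was left out, namely female B cell 1 or 3, male B cell 1, 2 or 3, female T cell 4, or male T cell 4 or 6, with a limma adjusted p of up to 0.103. It was also lost without both T cell libraries numbered 6 (0.21, limma adjusted p = 0.0554) and without the filter (0.19, limma adjusted p = 0.0501). The log2 difference was 0.14 to 0.24 over the 12 fits that left out 1 library, and the gene was called with median-ratio factors (0.27, limma adjusted p = 0.0112) and with totals made equal (0.53, limma adjusted p = 0.0109).

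Dock11, the third member of the DOCK-D subfamily and the only X-linked one, missed the threshold. Its adjusted TPM had a lowest, median and highest value of 94.2, 105 and 111 in B cells against 109.4, 111 and 121 in T cells, so the groups overlapped. The log2 difference was -0.12 (SE 0.05, 95% interval -0.23 to -0.01, limma adjusted p = 0.0531), and the exact permutation test of this gene alone gave p = 0.0195. It passed the limma threshold without female B cell 2 (adjusted p = 0.0364), without female T cell 6 (adjusted p = 0.0314) and without both T cell libraries numbered 6 (adjusted p = 0.0425), and its sign turned to 0.26 with totals made equal.

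Dock2 and the other regulators stood at nearly the same level in both cell types. The lowest, median and highest adjusted TPM of Dock2 were 187, 196 and 223 in B cells against 206, 212 and 228 in T cells. Its log2 difference was -0.09 (SE 0.06, 95% interval -0.23 to 0.04, limma adjusted p = 0.186). Dock8 ran from 47.5 over a median of 48.3 to 51.6 in B cells against 50.6 over 51.4 to 53.8 in T cells, with a log2 difference of -0.09 (SE 0.04, 95% interval -0.18 to 0.01, limma adjusted p = 0.0862). The exact permutation test of Dock8 alone gave p = 0.0108. For each of Dock2 and Dock8 the ranges overlapped and the interval held no difference beyond -0.23.

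Elmo1, the main ELMO scaffold here, ran from 44.0 over a median of 49.1 to 57.6 in B cells against 49.8 over 52.2 to 62.4 in T cells, where female T cell 6 was the highest. Its log2 difference was -0.08 (SE 0.07, 95% interval -0.24 to 0.08, limma adjusted p = 0.324). Elmo2 ran from 12.5 over 13.3 to 14.3 in B cells against 12.5 over 13.1 to 14.4 in T cells, with a log2 difference of 0.004 (SE 0.05, 95% interval -0.11 to 0.11, limma adjusted p = 0.945). Only 0.583% of the genes tested had a smaller absolute difference than Elmo2. The signs of the small differences of Dock2, Dock8, Dock11 and Elmo1 depended on the scaling: they were negative in the deposited scale and positive, from 0.26 to 0.29 with adjusted p from 0.202 to 0.28 (limma), once totals were made equal, a step that moved the median difference of all genes tested from -0.09 to 0.25.

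Dock5 lay just under the filter of an adjusted TPM of 1 in at least 3 libraries, which it reached in female T cell 6 and male T cell 5 only. Its adjusted TPM was 0.555, 0.673 and 0.684 in female B cells and 0.683, 0.558 and 0.627 in male B cells. In T cells it was 0.772, 0.926 and 1.27 in females and 0.806, 1.01 and 0.922 in males. On the deposited scale every T cell library was above every B cell library, by 1.51-fold in the means. The exact two-sided permutation test gave p = 0.00216, the smallest possible. The difference was still without overlap (p = 0.00476, exact permutation test, 6 against 4 libraries, again the smallest possible) when the T cell libraries numbered 6 were left out. With no filter, the log2 difference was -0.25 (limma adjusted p = 0.00671). Being under the filter, Dock5 was not tested with the other scalings. Equal totals would put male T cell 6 (0.922, total 1453940) below female B cell 3 (0.684, total 561020). The separation of all libraries thus depends on the scaling. Both levels are low. The deposited upper bound of Dock5 was 1.25 to 1.63 times the lower one. For values from 0.3 to 3 that ratio was 1.82 to 2.74 in the median gene of a library. Some deposited intervals of Dock5 overlapped between the cell types, at 0.652 to 0.902 in female T cell 4 against 0.591 to 0.781 in female B cell 3.

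**Figure D2:**
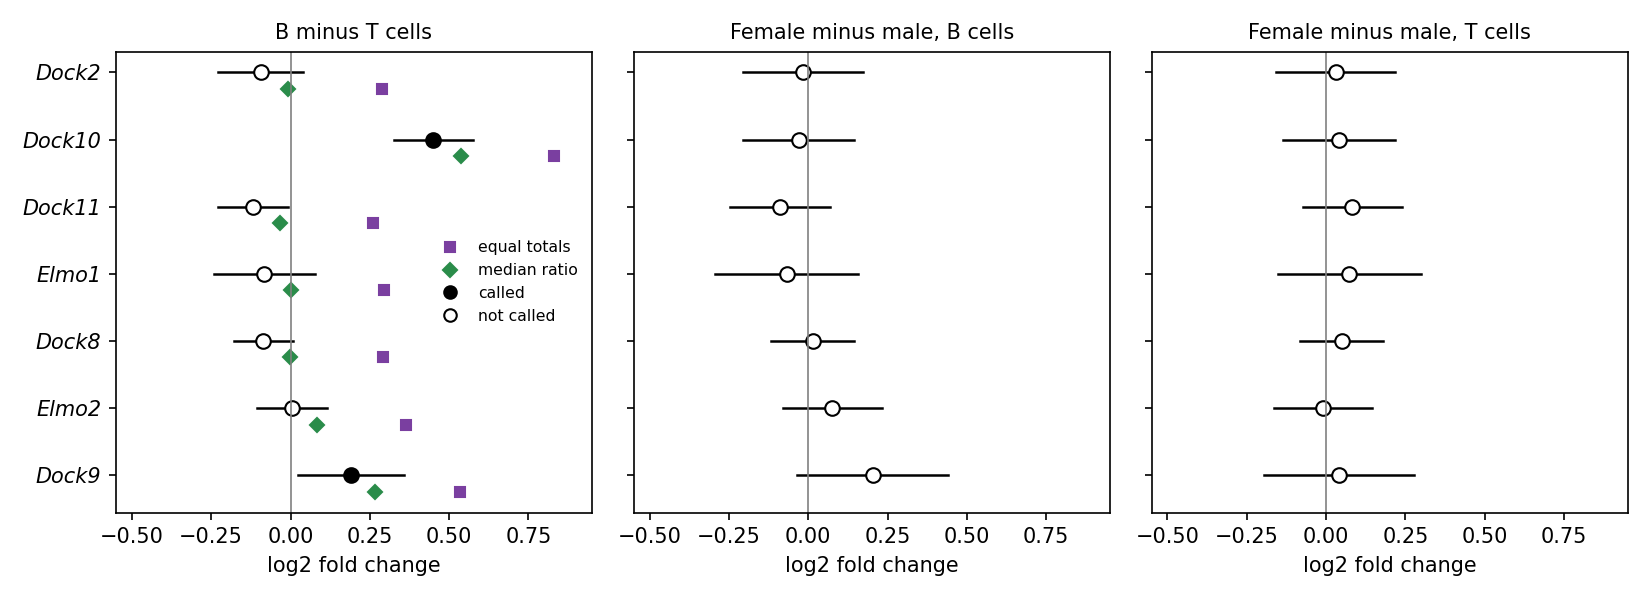
log2 fold changes (x axis, on log2(adjusted TPM + 1)) with 95% intervals of the 7 tested members for B minus T cells and for females minus males in each cell type; filled points passed the test, and squares and diamonds in the left panel give the values with equal totals and with median-ratio scaling. Dock10 at 0.45 stands apart from the others, Dock9 is at 0.19, and no member has a filled point for sex.

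Ratios between members within a library do not change when all values of a library are multiplied by 1 factor. Dock8 to Dock2 was 0.245 ± 0.0123 (SD, n = 6) in B cells against 0.244 ± 0.00584 (SD, n = 6) in T cells. Elmo1 to Dock2, the scaffold against its exchange factor, was 0.252 ± 0.0104 (SD, n = 6) in B cells against 0.251 ± 0.0145 (SD, n = 6) in T cells. Both pairs thus kept their proportion within the spread between libraries. Dock11 to Dock2 was 0.523 ± 0.0275 (SD, n = 6) and 0.532 ± 0.0343 (SD, n = 6), and Elmo2 to Elmo1 was 0.265 ± 0.0271 (SD, n = 6) and 0.249 ± 0.0224 (SD, n = 6), in B and T cells respectively.

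Ratios of Dock10 to Dock2, Dock11 and Dock8 separated the cell types. Dock10 to Dock2 ran from 0.764 to 0.847 in B cells against 0.514 to 0.598 in T cells. Dock10 to Dock11 ran from 1.51 to 1.67 in B cells against 0.922 to 1.18 in T cells, and Dock10 to Dock8 from 3.12 to 3.48 and from 2.09 to 2.43. None of these ranges overlapped. Of the summed adjusted TPM of the 8 members, Dock10 made up 27.6% ± 0.705 (SD, n = 6) in B cells against 20.7% ± 0.887 (SD, n = 6) in T cells. Dock2 made up 34.0% ± 0.799 (SD, n = 6) and 37.3% ± 0.859 (SD, n = 6), and Dock8 8.33% ± 0.317 (SD, n = 6) and 9.10% ± 0.191 (SD, n = 6). The share of Dock5 was small and higher in T cells, at 0.107% ± 0.0111 (SD, n = 6) against 0.166% ± 0.0257 (SD, n = 6). The shares of these 4 members did not overlap between the cell types, and since the shares add up to a whole, they do not vary independently. Dock9 to Dock10 was 0.0452 ± 0.00528 (SD, n = 6) in B cells against 0.0530 ± 0.00396 (SD, n = 6) in T cells. This ratio overlapped between the cell types, at 0.0398 to 0.0520 in B cells and 0.0477 to 0.0580 in T cells.

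**Figure D3:**
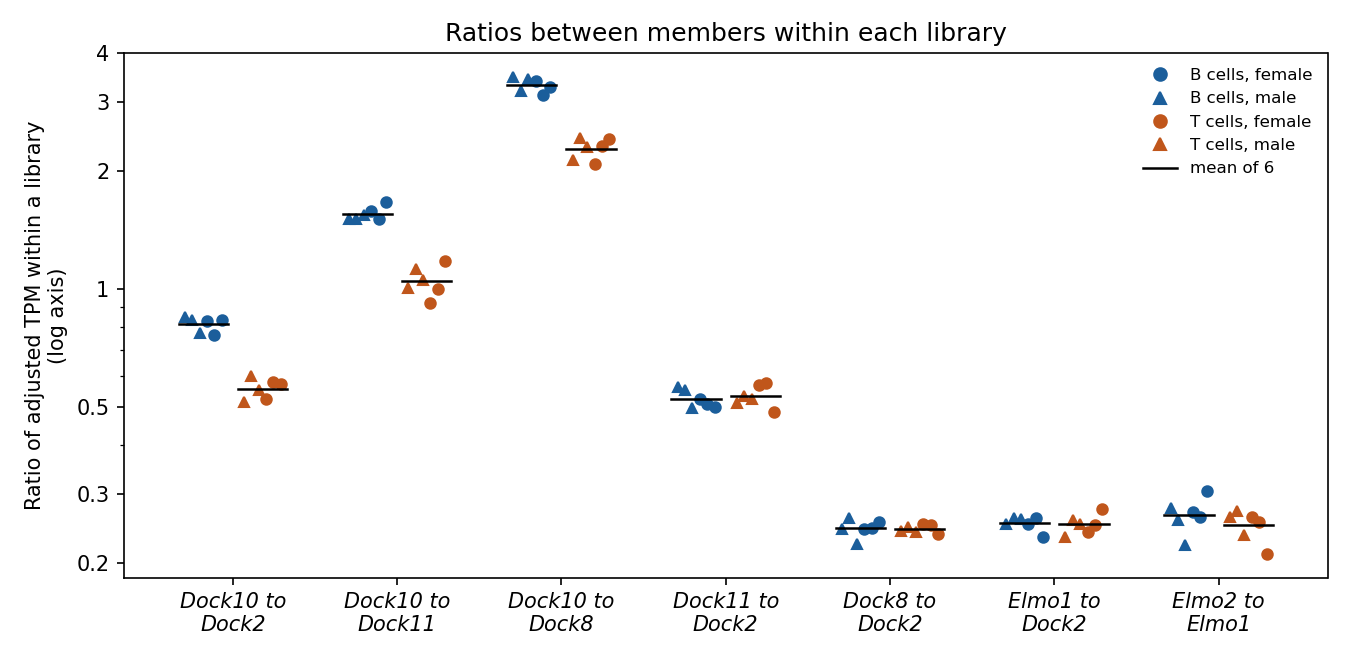
Ratios of adjusted TPM between pairs of members within each library (log axis), with circles for females, triangles for males, blue for B cells, orange for T cells and black bars for the means of 6. The 3 ratios with Dock10 on top separate the cell types (for Dock10 to Dock11, 1.51 to 1.67 against 0.922 to 1.18), while the other 4 overlap.

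The second comparison asks whether the members differ between the sexes within a cell type. No tested member differed in B cells or in T cells (0 of 7 each, limma, against 0.144% and 0.104% of all genes tested), and at an unadjusted p under 0.05 the count was also 0 of 7 in each, where 373 of 12520 genes in B cells and 319 in T cells reached it. The largest value was that of Dock9 in B cells, 0.20 on the log2 scale as female minus male (95% interval -0.03 to 0.44), where the lowest female library was 7.17 and the highest male library 7.03. The 3 female and 3 male libraries did not overlap for 1 of 7 members in B cells (Dock9), against 7.20% of all genes tested, and for 0 of 7 in T cells, against 8.49%. The X-linked Dock11 was at -0.09 in B cells (95% interval -0.25 to 0.07) and at 0.08 in T cells (95% interval -0.07 to 0.24). Over the 7 members the intervals together ran from -0.29 to 0.44 in B cells and from -0.20 to 0.30 in T cells. The difference between the sex effects of the 2 cell types was called for 0 of 7 members and 0 of 12520 genes (limma), with 0 members and 295 genes at an unadjusted p under 0.05.

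Some pairs of members also varied together between the libraries of a group. After removal of the 4 group means, the members' log2 values correlated most for Dock2 and Elmo1 (Pearson r = 0.861 over 12 libraries), followed by Dock5 and Dock10 (0.817), Dock2 and Dock8 (0.756), Dock9 and Dock10 (0.749), Dock10 and Elmo1 (0.728) and Dock8 and Elmo1 (0.71). The lowest of the 28 pairs was Dock5 and Dock11 (-0.382). The points of such a pair share a library and its scaling, and these values are a description.

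The non-member genes most like each member were sought by Pearson r over the same 12 libraries among all genes tested. For Dock10, Foxred2 came first both by its log2 values (0.987) and by its deviations from group means (0.909). The highest r of log2 values was 0.939 for Dock2 with Rnf145, 0.914 for Dock8 with Smyd3, 0.919 for Dock9 with Stx17, 0.91 for Dock11 with Stag2, 0.878 for Elmo1 with Gm26733 and 0.8 for Elmo2 with Dgcr6. The highest r of deviations was 0.968 for Dock2 with Spata5, 0.933 for Dock8 with Dtnb, 0.965 for Dock9 with N4bp2l2, 0.941 for Dock11 with Mylip, 0.964 for Elmo1 with Zfp362 and 0.9 for Elmo2 with BC003331. Each is the highest of the values for all genes tested, over 12 points.

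The other DOCK, ELMO and ELMOD genes were lower than most members. Of 8 such genes, 3 passed the filter and all 3 differed between the cell types, against 73.0% of all genes tested. Elmod3 was 5.85 ± 0.425 (SD, n = 6) in B cells against 3.42 ± 0.148 (SD, n = 6) in T cells (log2 difference 0.63, SE 0.06, limma adjusted p = 4.9e-07). Elmod2, like Elmod3 a member of a family that acts on Arf and Arl GTPases, was 11.2 ± 0.498 (SD, n = 6) and 8.65 ± 0.970 (SD, n = 6) (log2 difference 0.34, SE 0.07, limma adjusted p = 0.000593). Elmo3 was 1.59 ± 0.203 (SD, n = 6) and 1.90 ± 0.257 (SD, n = 6) (log2 difference -0.16, SE 0.07, limma adjusted p = 0.0475). Its sign turned to 0.09 (limma adjusted p = 0.659) with totals made equal and to 0.03 (limma adjusted p = 0.829) without the top gene. The call of Elmo3 was also lost with median-ratio factors (-0.11, limma adjusted p = 0.18) and without both T cell libraries numbered 6 (limma adjusted p = 0.125).

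Among the 5 genes under the filter, Dock4, a DOCK-B exchange factor for Rac, ran from 0.484 to 0.810 in T cells and from 0.0905 to 0.201 in B cells, without overlap (p = 0.00216, exact permutation test). Dock6, of the same subfamily as Dock8, was the reverse and ran from 0.389 to 0.695 in B cells against 0.0798 to 0.185 in T cells (p = 0.00216, exact permutation test). Dock1, the widely expressed DOCK-A protein, ran from 0.0292 to 0.0736 in B cells against 0.00241 to 0.00782 in T cells (p = 0.00216, exact permutation test). The deposited intervals of Dock1 did overlap, with a lower bound of 0.00805 in male B cell 1 and an upper bound of 0.0224 in female T cell 6. The values of Dock3 overlapped (p = 0.121, exact permutation test). Elmod1 was at most 0.000216 in every library. The summed level of the monocyte and macrophage markers was also higher in the B cell libraries, as given above. Among these markers Csf1r and Itgam overlapped between the cell types, Itgam at 1.03 to 1.47 in B cells against 0.916 to 1.71 in T cells. The sum of 4 dendritic cell markers was 3.13 to 8.93 in B cells against 0.153 to 0.755 in T cells, with Siglech at most 0.0018 in every library. The part of cells with these markers in the values of Dock1 and Dock6 was not tested.

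**Figure D4:**
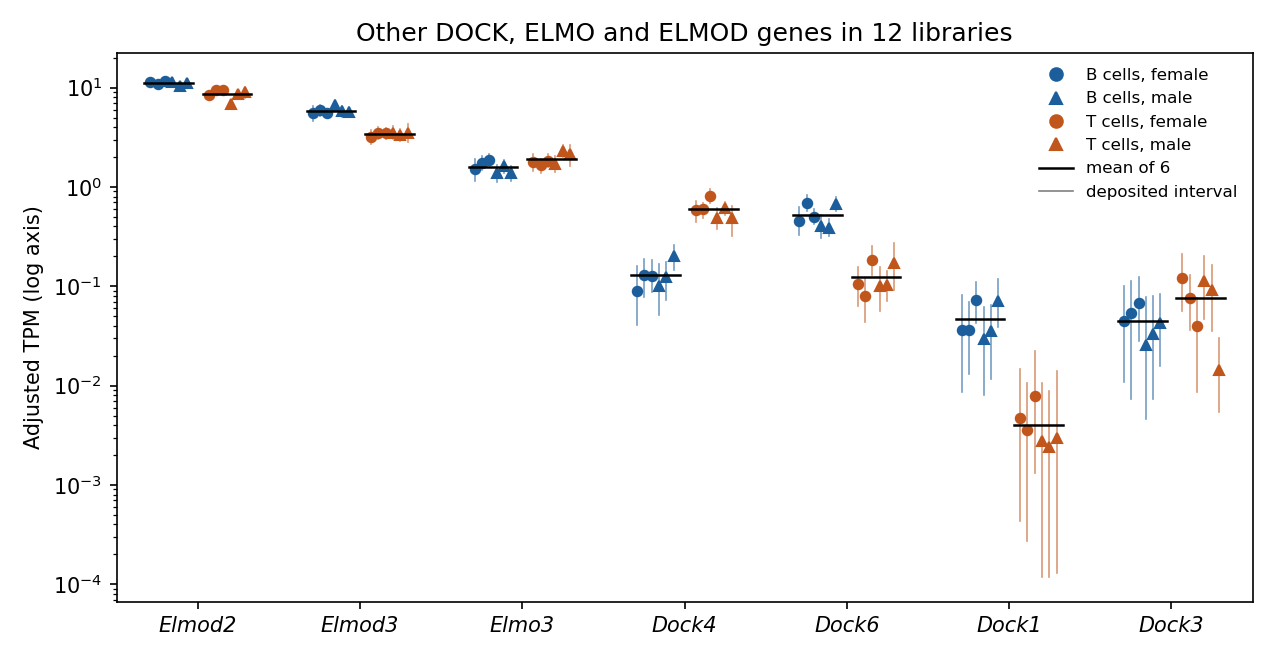
Adjusted TPM (log axis) of 7 of the 8 other DOCK, ELMO and ELMOD genes in the 12 libraries, drawn like the plot of the members, with vertical lines for the deposited intervals. Only Elmod2, Elmod3 and Elmo3 lie above 1. Every interval of Dock1 and Dock3 spans more than 2-fold, as do some intervals of Dock4 and Dock6.

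On the deposited scale the wider Rac and Cdc42 machinery differed between the cell types at a share near that of all genes tested, above that of the members. Over 5 lists of other genes (the 8 family genes included), 51 of 66 genes were tested, 25 were higher in B cells and 14 were higher in T cells (76.5% of those tested, against 73.0% of all genes tested), and their median absolute log2 difference was 0.46. Beside the 0.40 of all genes tested and the 0.09 of the members, this is a description and was not tested. With totals made equal the counts were 28 higher in B cells, 6 higher in T cells. None of the 66 was called between the sexes in either cell type (limma), against 18 of 12520 genes in B cells and 13 in T cells.

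The GTPases that the members act on changed in part. Of 12 GTPases of the family of Rac and Cdc42, 8 were tested, with 2 higher in B cells, 2 higher in T cells and 4 not called. Rac1, the ubiquitous Rac, was 69.8 ± 4.82 (SD, n = 6) in B cells against 110.6 ± 8.98 (SD, n = 6) in T cells (log2 difference -0.66, limma adjusted p = 1.43e-06), which came to -0.57 (limma adjusted p = 1.67e-06) with median-ratio factors, -0.37 (limma adjusted p = 0.0049) with totals made equal after removal of the top gene and -0.28 (limma adjusted p = 0.242) with totals made equal. Rac2, the haematopoietic Rac, was not called (-0.22, limma adjusted p = 0.0535), nor were Cdc42 (-0.09, limma adjusted p = 0.388), Rhog (0.18, limma adjusted p = 0.0888) and Rhoa. Rhoq, which encodes the Cdc42 relative TC10, was 27.9 to 31.3 in B cells against 0.590 to 1.58 in T cells. Rhob was higher in B cells (0.90) and the haematopoietic Rhoh higher in T cells (-0.54), called with median-ratio factors (-0.46) and without the top gene (-0.25, limma adjusted p = 0.0472) but not with totals made equal (-0.17).

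Of 11 adaptors and partners of DOCK and ELMO proteins, 10 were tested, with 5 higher in B cells, 3 higher in T cells and 2 not called. Lrch1, which encodes a protein known to bind Dock8, differed by 0.68 and was 24.4 ± 1.12 (SD, n = 6) in B cells against 14.9 ± 0.868 (SD, n = 6) in T cells. Crk, an adaptor that recruits Dock1, differed by 0.46, and Mob1b by 0.32. Stk4, the kinase Mst1 that acts upstream of Mob1 in lymphocytes, was higher in T cells at 155 ± 8.12 (SD, n = 6) against 99.9 ± 7.25 (SD, n = 6), a log2 difference of -0.63. It was also called with median-ratio factors (-0.55) and without the top gene (-0.34, limma adjusted p = 0.0113) but not with totals made equal (-0.25, limma adjusted p = 0.303). Myo9b (-0.33) and Baiap2 (-0.31) were also higher in T cells. Both were called with median-ratio factors (-0.24 each), and neither with totals made equal (0.04 and -0.0063) or without the top gene (-0.04 and -0.08).

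The other exchange factors for Rac and Cdc42 held the largest differences. Of 17 listed, 14 were tested, with 9 higher in B cells, 3 higher in T cells and 2 not called. Swap70, an exchange factor for Rac first found in B cells, was 239 ± 21.2 (SD, n = 6) in B cells against 2.74 ± 0.543 (SD, n = 6) in T cells (log2 difference 6.01). Fgd2, an exchange factor for Cdc42, ran from 84.0 to 113 in B cells and was at most 0.0955 in T cells, and Vav2 was 41.7 ± 2.02 (SD, n = 6) against 2.47 ± 0.579 (SD, n = 6). Def6, the relative of Swap70 known in T cells, was 54.5 ± 6.31 (SD, n = 6) in T cells and 25.5 ± 0.873 (SD, n = 6) in B cells (log2 difference -1.06). Prex1 (-0.93) and Tiam1 (-0.98) were also higher in T cells, and Tiam1 reached 3.21 and 2.09 in the female and male T cell libraries numbered 6, against 0.787 to 1.09 in the other T cell libraries. Without those libraries Tiam1 was still called (-0.68, limma adjusted p = 3.75e-06).

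Of 18 WAVE, WASP and PAK effectors, which carry the GTPase signal to actin, 16 were tested, with 7 higher in B cells, 5 higher in T cells and 4 not called. Subunits of the WAVE complex went both ways: Cyfip1 (2.36) and Abi3 (33.7 in B cells but 11.3 in T cells) were higher in B cells, and Nckap1 (-1.51) and Abi2 (-0.81) higher in T cells. Nckap1 was 0.117 ± 0.0803 (SD, n = 6) in B cells against 2.23 ± 0.671 (SD, n = 6) in T cells. The kinase genes also divided, with Pak4 higher in B cells (0.76) and Pak1 higher in T cells (-0.81).

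**Figure D5:**
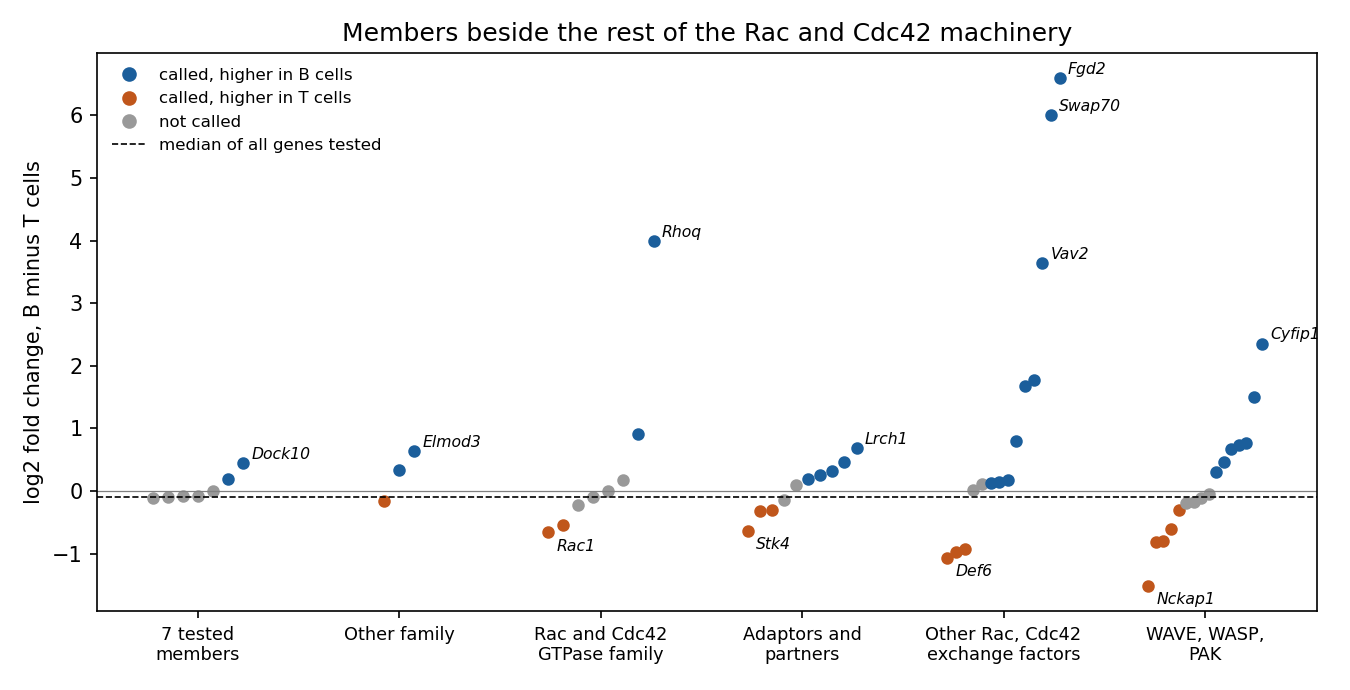
log2 fold change, B minus T cells, of each tested gene of the members and of 5 lists, blue where called higher in B cells, orange where called higher in T cells and grey where not called; the dashed line is the median of all genes tested, -0.09. The members lie between -0.12 and 0.45, whereas the other exchange factors run from -1.06 (Def6) to 6.59 (Fgd2).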

How the data were processed

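RNA was measured in 12 libraries, 3 for each sex and cell type, grouped by their labels. Per the labels, the RNA was spiked with ERCC transcripts (not analysed here), depleted of ribosomal RNA and made into stranded libraries, and the submitters' processing notes name Trim Galore, FastQC, STAR and the build mm10, without versions. The deposited values used are a signal, adjusted TPM, for 41128 genes, with a lower and an upper bound whose level is not given in the sources used here, nor is the method of adjustment. They are not counts, and the depth is unknown. Precision was read from the bounds: the median upper to lower ratio was 1.08 to 1.13 for values from 30 to 300. Some label fields call the material genomic DNA, while protocol and series describe RNA.

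Values were tested as log2(adjusted TPM + 1) with limma 3.58.1 (R 4.3.3), a mean-variance trend and a fit over all 4 groups, for the 12520 genes that reached 1 adjusted TPM in 3 or more libraries. Tests were two-sided, with Benjamini-Hochberg adjustment over all genes tested and a threshold of 0.05. Single genes were also tested by exact permutation of 6 against 6 libraries. On simulated data with 200 of 12520 genes changed, the B against T cell fit recovered 79.8% of changes of 0.5 and 98.0% of changes of 1 on the log2 scale. For the sexes it recovered 52.0% (B cells) and 51.3% (T cells) of changes of 0.5. Apart from the change, each simulated gene had the same mean in all libraries, and libraries were drawn independently. In the data 73.0% of genes tested were called between B and T cells, and 0.144% (B cells) and 0.104% (T cells) between the sexes. The share recovered depends on how many genes change, so these values hold for the simulated setting only. T cell libraries with the same number deviated together between the sexes (r = 0.721, 0.548 and 0.521), so these numbers pair the T cell libraries. This pairing comes from the data, since the labels give only the number. The B against T cell tests, by limma and by permutation, treated the libraries as independent and did not take it into account. Their p-values, and the spreads over the 6 T cell libraries, carry that limit.

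Of 41128 gene identifiers, 40254 matched GENCODE M21 (GRCm38), which gave positions. Promoter windows came from RefSeq (GRCm38.p6). The members and all lists were chosen with earlier results of these data known. Named genes were the members, every other gene of the family list, up to 3 genes per direction and list by size of change among those called, and the genes most like each member. Rac2, Cdc42, Rhog and Rhoa, as the GTPases not called, were named after their values were seen. A further gene of the family list is not reported here.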

Additional observations from a re-analysis of the deposited data

Results flagged for a closer look

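In 38 genes, each looked at in the 6 B cell and the 6 T cell libraries, 5 of 76 values stood apart, in that the gap to the nearest library over the whole range was above Dixon's 95% critical value. Chance alone flags about 1 in 20 such sets. Among the members, Elmo1 was 62.4 in female T cell 6, and the next T cell library was at 53.2. Female T cell 6 was also the T cell library with the highest Dock2, Dock5, Dock8 and Dock10 and with the highest sum of regulatory and activated T cell markers, 21.0, whose part in these values was not tested. Without both T cell libraries numbered 6, the mean Elmo1 in T cells was 51.4.

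The other values were of low or moderate level. Dock4 was 0.201 in male B cell 3 (nearest 0.130), Elmod2 was 6.82 in male T cell 4 (nearest 8.49), Elmod3 was 6.66 in male B cell 1 (nearest 5.93), and Nckap1 was 0.266 in male B cell 3 (nearest 0.120).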

How the results depend on the processing

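Between B and T cells, Dock10 kept its direction in every alternative and its call in every alternative with a test, with log2 differences of 0.42 to 0.48 over the 12 fits that each left out 1 library (limma adjusted p at most 7.28e-05). The number of members called between B and T cells was 1 to 3 over those fits, 4 without the filter (Dock5, Dock8, Dock10 and Dock11), and 1 (Dock10) without female B cell 1 and male T cell 6, the libraries in which 1 gene took over 30% of the total. Leaving out these libraries, leaving out both T cell libraries numbered 6 and rescaling without the top gene were chosen after seeing the data. Dock11 passed with a pseudocount of 0.1 (limma adjusted p = 0.0456), and Elmo2 with equal totals after removal of the top gene (0.29, limma adjusted p = 0.0247). Between 36 and 41 pathway genes were called over the fits that left out 1 library. With totals made equal, the values of members whose sign turned were 0.29 (Dock2), 0.29 (Dock8), 0.26 (Dock11) and 0.29 (Elmo1) for B minus T cells, -0.054 for sex in B cells (Dock8) and 0.26 for sex in T cells (Elmo2). With totals made equal after removal of the top gene they were 0.20, 0.20, 0.17 and 0.21 for the same 4 genes, 0.015 (Dock2) and 0.0024 (Dock10) for sex in B cells and 0.088 (Elmo2) for sex in T cells. With median-ratio factors Elmo1 came to 0.0027. Elmo2 came to -0.0071 without female B cell 1 and male T cell 6 and to -0.018 without both T cell libraries numbered 6. Without those last 2 libraries the sex differences in T cells were -0.0087 (Dock2), -0.0020 (Dock9), -0.021 (Dock10) and -0.0070 (Elmo1). None of the values that changed sign passed the test. The cause was not tested.

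Over the fits that left out 1 library, the differences that changed sign ran from -0.017 to 0.031 for Elmo2 between B and T cells. For sex in B cells they ran from -0.071 to 0.057 (Dock2), -0.020 to 0.033 (Dock8), -0.070 to 0.0032 (Dock10) and -0.14 to 0.011 (Elmo1). For sex in T cells they ran from -0.010 to 0.061 (Dock2), -0.057 to 0.14 (Dock9), -0.019 to 0.093 (Dock10), -0.021 to 0.12 (Elmo1) and -0.053 to 0.044 (Elmo2). With the replicate number as a block, 0 members were called for sex in B cells, 0 in T cells and 0 for the difference between the sex effects, as without the block. In B cells the numbers did not pair the libraries (r = -0.169, -0.0382 and -0.337).

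No depth is known, so the limits of detection cannot be given in reads. Sex differences of 0.5 on the log2 scale were recovered in about 51.3% to 52.0% of simulated cases.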
